A study of Mus musculus with 9 samples.

Results

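Lymph nodes and spleens of plckGAPDH mice were compared, outside the immunoglobulin and T cell receptor loci. The samples were chosen by their genotype and tissue labels, which gave 6 of the 9 samples of the study. They were 2 plckGAPDH lymph nodes, of animals 508 and 455, and 4 plckGAPDH spleens, of animals 508, 343 and 547 and of an animal whose number the data column does not give, called the unnumbered spleen. All 9 samples came from C57BL/6 mice older than 18 months. In plckGAPDH mice the Lck promoter, active in T lineage cells, drives a transgene of Gapdh, and the labels call these mice tumour-developing. The title of lymph node 455 carries the letters MES, which the labels do not explain. The other 3 samples, wild-type spleens 1, 4 and 5 of the same strain and age range, serve as a background. Per the labels' protocols, RNA of all samples came from splenocytes, so the protocol does not describe how the lymph nodes were prepared. The labels do not say whether animals were pooled, or whether the unnumbered spleen comes from an animal of its own, so p-values cover only the spread among these libraries.

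The spleen filters blood. Its red pulp holds red blood cells, a reserve of neutrophils and macrophages that recycle iron, and in mice it also makes blood cells. The lymph node filters lymph, has no red pulp, and is entered by lymphocytes through high endothelial venules and guided by chemokines of its stromal network. Both hold B cell follicles and T cell zones, so the genes that separate the 2 organs in healthy mice are mostly those of blood, red pulp and stroma. Neutrophils store antimicrobial proteins in granules, and the genes of the granule proteins are transcribed in the marrow or other sites of granulocyte formation rather than in the ripe cell.

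Levels are FPKM, a fragment count scaled to gene length and library total, divided by a median-of-ratios factor for each library. Values follow the order lymph nodes 508 and 455, then spleens 508, 343, 547 and unnumbered. Differences are lymph node minus spleen on the scale of log2(FPKM + 1), which understates the change of low genes, and were tested with limma over 12433 genes that reached 1 FPKM in at least 2 of the 6 libraries, 12268 of them outside the receptor loci. A gene is called when its p-value, adjusted over all genes tested, is under 0.05. Depth was estimated at 23900000 to 34400000 fragments per library, so that 1 deposited FPKM of a gene of 1 kb effective length stands for 23.9 to 34.4 fragments. Mitochondrial ribosomal RNA took 23.7% to 53.4% of the estimated fragments, 39.0% in lymph node 508 and 51.8% in lymph node 455. The marker lists of the report hold 438 genes, and 268 of them passed the filter on low values.

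Between the 2 tissues, 1 gene was called higher (0.00804% of genes tested) and 0 were called lower with limma (0%). At an unadjusted p under 0.05 there were 259 genes (2.08%), 155 of them higher in lymph nodes (1.25%) and 104 lower (0.836%). In 427 genes both lymph nodes lay above all 4 spleens (3.43%), and in 616 both lay below (4.95%). The called gene was Gm27605, a short non-coding RNA (chromosome 11, 96200176 to 96200311, GRCm38), at 9.83 and 15.7 FPKM in the lymph nodes and listed at 0 in all 4 spleens. Its difference was 3.75 (SE 0.27, adjusted p = 0.0390). The spleens, all listed at 0, add no spread of their own to this SE. The gene passed the filter only through the 2 lymph nodes, so its lack of overlap followed from the filter. The gene is 136 bases long, less than the estimated fragment length of 160 to 170 bases, which makes its FPKM uncertain. Without spleen 547, spleen 343 or the unnumbered spleen its adjusted p was 0.0759, 0.160 and 0.195, and over 12 alternatives it ran from 0.000909 to 0.998. None of the genes of stroma, red pulp, blood or lymphoid cells described next was called in the 6-library fit.

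The 2 libraries of animal 508, which are of different tissues, were more alike than the 2 lymph nodes. The lymph node and the spleen of animal 508 were the most alike of the 15 pairs of libraries, with 131 of 12268 genes at least 4-fold apart (1.07%) and a Pearson r of 0.959 across genes. The 2 lymph nodes differed in 462 genes at that threshold, with an r of 0.887. The other pairs ranged from 236 genes, between spleen 343 and the unnumbered spleen, to 763, between lymph node 508 and spleen 343. These counts have no test, and genes are not independent replicates.

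**Figure D1:**
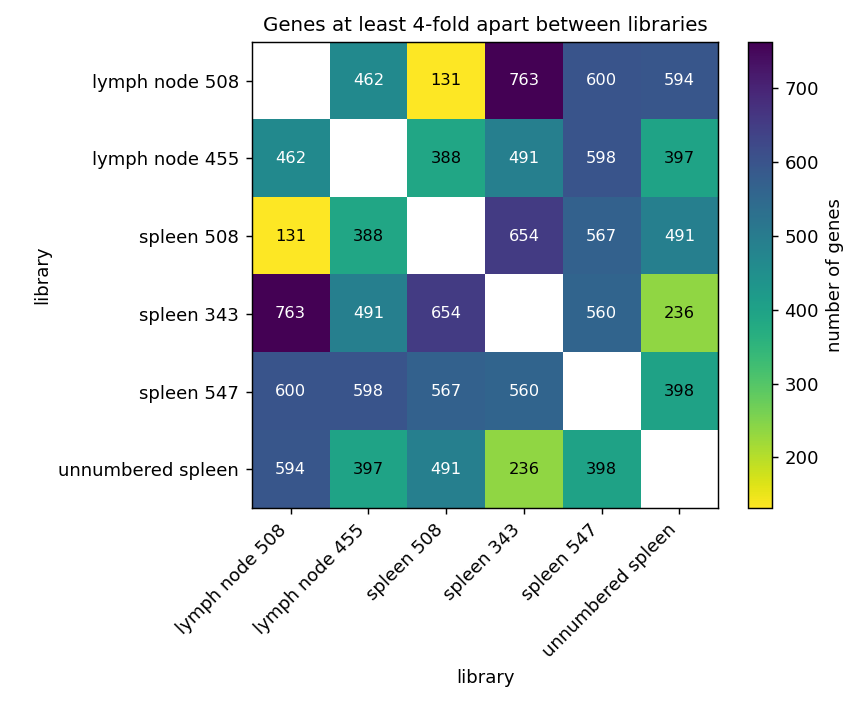
Number of genes at least 4-fold apart on the log2(FPKM + 1) scale between each pair of the 6 plckGAPDH libraries, over 12268 genes outside the receptor loci; both axes list the libraries. The pair of animal 508 differs in 131 genes and the 2 lymph nodes in 462.

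To see which differences recur, 2 contrasts with no library in common, chosen with earlier results known, were set side by side. In the first, lymph node 508 was compared with spleen 508 of the same animal. In the second, lymph node 455 was compared with the mean of spleens 343, 547 and unnumbered. Each has 1 lymph node, so neither has a test of its own. Across 12268 genes the 2 sets of differences had a Pearson r of 0.0064 and a Spearman rho of -0.07, and 46.5% of the genes had the same sign. Of all 12433 genes, lymph node 508 was at least 2-fold above spleen 508 in 2.2% and below it in 1.24%. At least 2-fold differences outside the receptor loci were found in 386 genes of animal 508 and in 1388 genes of the second contrast. Of these, 187 passed in both, which is 109 in the same direction and 78 in opposite directions. The 109 genes make 28.2% of the first set and 7.85% of the second.

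Of those 109 genes, 61 were higher in lymph nodes and 48 lower. Over all 12433 genes, receptor genes included, the shares were 0.643% and 0.394%. Among the lower ones were 26 protein-coding genes, and 12 of these are on the list of neutrophil genes and 3 are globins. Slc40a1, the iron exporter of red pulp macrophages, was a further one. The remaining 10, chosen here after their values were seen, include Ifitm6, Anxa1, Wfdc21, Chil1, Itgb2l, Ms4a3 and Nfe2. Anxa1 (annexin A1), an anti-inflammatory protein abundant in neutrophils, stood at 1.3 and 3.97 FPKM in the lymph nodes and 30.9, 8.88, 13.2 and 9.82 FPKM in the spleens. Nfe2, a transcription factor of erythroid cells and megakaryocytes, stood at 0.102 and 0.777 FPKM against 1.63, 2.06, 6.9 and 2.46 FPKM. In both genes every lymph node lay below every spleen, but Nfe2 passed the filter only through the spleens. Among the 61 higher genes were 28 protein-coding ones, 5 of them on the pancreas list, and the chemokine genes Ccl8 and Ccl21a were also among them. Many of the other genes in both directions are short non-coding RNAs or pseudogenes. Gm25534 and Gm22625, of 125 and 126 bases, are examples shorter than the estimated fragment length, which makes their FPKM uncertain.

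**Figure D2:**
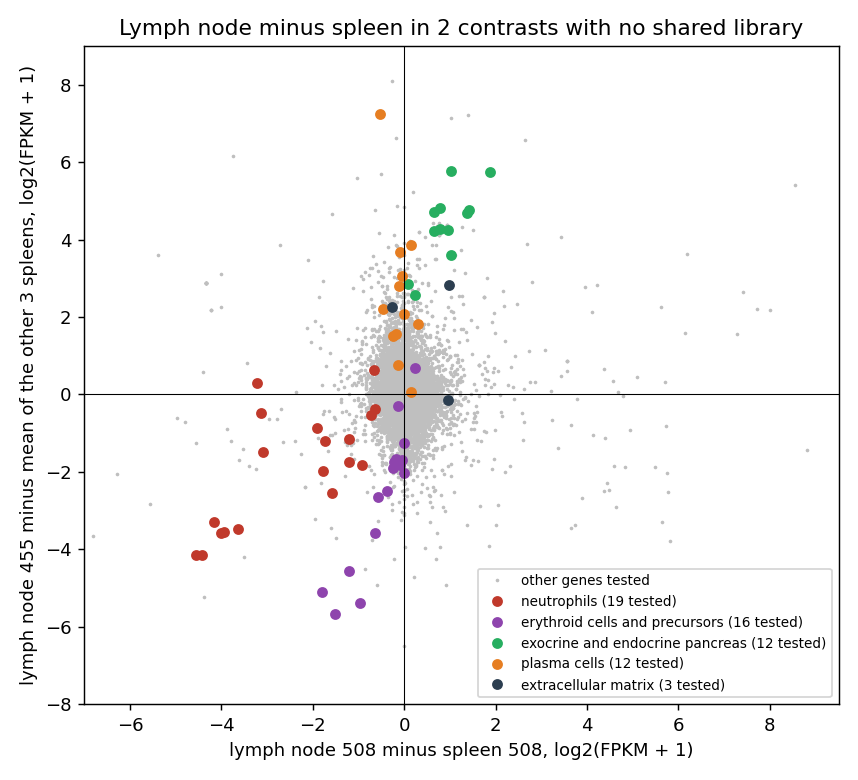
Differences of 12268 genes outside the receptor loci in animal 508 (horizontal axis) and in lymph node 455 against the other 3 spleens (vertical axis), both on the log2(FPKM + 1) scale; coloured points are 5 marker lists, and 3 other genes lie outside the axes. Most neutrophil genes lie low on both axes, while erythroid, plasma cell and pancreas genes spread mainly along the vertical axis.

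Most neutrophil genes were lower in both lymph nodes than in the spleens. All 19 listed genes passed the filter and all 19 differences were negative, with a median of -1.56 against -0.0003 over all genes tested. At an unadjusted p under 0.05, 16 of the 19 were lower (0.836% of all genes), and in 15 of the 19 both lymph nodes lay below all 4 spleens (4.95% of all genes). Some listed genes, Elane, Prtn3, Mmp9 and Ly6g among them, were under 1 FPKM in both lymph nodes and passed the filter only through the spleens. For such genes the filter favours lower lymph nodes, so their lack of overlap is no support. In animal 508 all 19 were lower, with a median of -1.92, and in the second contrast 17 were lower, with a median of -1.74. In 12 of the 19 the level was at least 2-fold lower in both (0.394% of all genes). The list's median stayed between -3.39 and -1.47 over the alternatives run. In bulk RNA, fewer cells of a type and less RNA per cell cannot be told apart.

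The leading genes were those of secondary granule proteins. Ngp, neutrophilic granule protein (chromosome 9, 110419747 to 110423012, GRCm38), stood at 5.49 and 2.93 FPKM in the lymph nodes and 152, 58.5, 77.6 and 72.9 FPKM in the spleens. Every spleen held more than every lymph node, and spleen 508 held the most although it comes from the same animal as lymph node 508. The means were 4.21 ± 1.81 FPKM (SD, n = 2) and 90.3 ± 42 (SD, n = 4), 21.5-fold higher in spleens, and the difference was -4.08 (SE 0.44, adjusted p = 0.0939). Camp, the cathelicidin antimicrobial peptide (chromosome 9, 109847379 to 109849617), stood at 2.39 and 0.789 FPKM against 72, 21.5, 40.8 and 32 FPKM. Its difference was -3.98 (SE 0.51, adjusted p = 0.206), and again no library of one tissue reached the range of the other. Ltf, the iron-binding lactoferrin (chromosome 9, 111019271 to 111042767), stood at 2.97 and 1.9 FPKM against 48.1, 25, 37.9 and 33.1 FPKM, a difference of -3.41 (SE 0.32, adjusted p = 0.0776). Lcn2, lipocalin 2, which binds bacterial siderophores (chromosome 2, 32384633 to 32388252), stood at 3.07 and 2.76 FPKM against 71.4, 32.2, 40.1 and 35.5 FPKM, a difference of -3.48 (SE 0.36, adjusted p = 0.0854). In all 4 genes the lowest spleen, spleen 343, lay above the higher of the 2 lymph nodes.

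The call on these 4 genes turned on the scaling of the libraries and on how animal 508 was treated. With FPKM as deposited all 4 were called lower, at an adjusted p of 0.0189 to 0.0191, and with scaling to the sum over long genes at 0.00884 to 0.0196. These scalings also moved the median difference of all genes, to -0.62 and -0.27. With a term for animal 508, which gave both tissues, all 4 were called lower, with an adjusted p of 0.0427 for Ngp, Camp and Ltf and of 0.0494 for Lcn2. Without spleen 508, Ngp, Ltf and Lcn2 were called lower, at an adjusted p of 0.0250, 0.0275 and 0.0142. Over 16 alternatives the adjusted p of Ngp ran from 0.00884 to 0.995, and its difference ran from -4.75 to -3.73. Without both libraries of animal 508, or without lymph node 455 and spleen 343, only 1 lymph node is left and the spread comes from the spleens alone. None of the 4 was then called, with differences of -4.23 and -3.91 for Ngp and of -3.36 and -3.57 for Lcn2.

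Promoter sequence of Ngp, Camp and Ltf is shown because these genes were low together in both lymph nodes. The windows are the 250 bases before each RefSeq start site on GRCm38.p6. GENCODE exons begin inside all 3, so only the stretch upstream of those exons is written, 5′ to 3′ on the gene's own strand, with 189, 89 and 229 bases. The window of Lcn2 begins inside a GENCODE exon, and its sequence is not shown. Capitals mark matches on either strand to TTGCNNAA, letters that resemble the sites of C/EBP factors, which act in granulocyte formation.
Ngp, chr9:110419558-110419746, plus strand: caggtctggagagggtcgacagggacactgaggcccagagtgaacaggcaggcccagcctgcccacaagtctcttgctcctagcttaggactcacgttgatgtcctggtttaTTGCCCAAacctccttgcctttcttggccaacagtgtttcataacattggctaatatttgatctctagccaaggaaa
Camp, chr9:109849618-109849706, minus strand: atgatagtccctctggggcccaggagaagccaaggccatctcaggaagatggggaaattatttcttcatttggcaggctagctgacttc
Ltf, chr9:111019042-111019270, plus strand: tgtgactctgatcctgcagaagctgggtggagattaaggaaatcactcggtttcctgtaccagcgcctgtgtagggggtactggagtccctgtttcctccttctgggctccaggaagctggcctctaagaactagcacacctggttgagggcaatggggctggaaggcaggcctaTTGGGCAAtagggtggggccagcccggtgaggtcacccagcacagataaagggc

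The whole window of Ngp holds 2 matches, of which 1 lies in the stretch shown, those of Ltf and Lcn2 hold 1 each, and that of Camp 0. The windows of S100a8 and S100a9 hold 0 and 1. Of all 32851 RefSeq promoters of this length, 9.56% hold a match. A match is a description of letters and no evidence of binding. Camp, Ngp and Ltf lie on chromosome 9 with 0.572 Mb between the starts of Camp and Ngp and 0.600 Mb between those of Ngp and Ltf, and Lcn2 lies on chromosome 2.

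The remaining neutrophil genes followed by role. S100a8 and S100a9, the subunits of calprotectin, were the most abundant of the list. S100a8 stood at 38.1 and 17 FPKM in the lymph nodes and 599.7, 162, 279.6 and 204 FPKM in the spleens, a difference of -3.37 (SE 0.61, adjusted p = 0.795). S100a9 stood at 42 and 20.7 FPKM against 688, 201, 326 and 255 FPKM, a difference of -3.43 (SE 0.58, adjusted p = 0.751). The tissues did not overlap in either gene. Primary granule enzymes, made early in granulocyte formation, were low in all libraries and lowest in the lymph nodes. Mpo, myeloperoxidase, stood at 1.24 and 0.0717 FPKM against 5.67, 3.7, 10.2 and 3.72 FPKM. Elane, neutrophil elastase, stood at 0.307 and 0.120 FPKM against 3.45, 1.62, 7.99 and 2.7 FPKM, and the serine proteases Prtn3 and Ctsg likewise did not overlap. Elane and Prtn3 passed the filter only through the spleens. For these early genes spleen 547 was the highest library, whereas for Ngp, Camp, Ltf, Lcn2, S100a8 and S100a9 spleen 508 was.

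Genes of the ripe neutrophil surface and gelatinase granule gave a less even picture. Mmp9, gelatinase B, stood at 0.170 and 0.538 FPKM against 2.91, 3.12, 2.71 and 1.87 FPKM, and Cd177, a surface glycoprotein of neutrophils, at 0.256 and 1.11 FPKM against 9.61, 4.28, 5.42 and 5.0 FPKM. Ly6g, the surface marker used to sort mouse neutrophils, stood at 0.307 and 0 FPKM against 2.03, 0.654, 1.73 and 1.45 FPKM. In none of these 3 genes did the tissues overlap, but Mmp9 and Ly6g passed the filter only through the spleens. Cxcr2, a chemokine receptor of circulating neutrophils, stood at 0.886 and 0.466 FPKM against 1.95, 1.11, 0.819 and 0.834 FPKM, with lymph node 508 inside the range of the spleens. Csf3r, the receptor for the growth factor G-CSF, stood at 0.562 and 3.11 FPKM against 1.45, 1.07, 2.44 and 1.67 FPKM. For Csf3r lymph node 455 was the highest of the 6 libraries. Chil3, a chitinase-like protein made by both neutrophils and macrophages, stood at 6.46 and 98 FPKM against 68.5, 50.5, 129 and 77.1 FPKM, with lymph node 455 inside the range of the spleens. The summed level of the list was 108 and 158 FPKM in the lymph nodes and 585 to 1764 FPKM in the spleens. The wild-type spleens spanned 26.4 to 2769 FPKM, which is wider than the gap between these tissues.

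**Figure D3:**
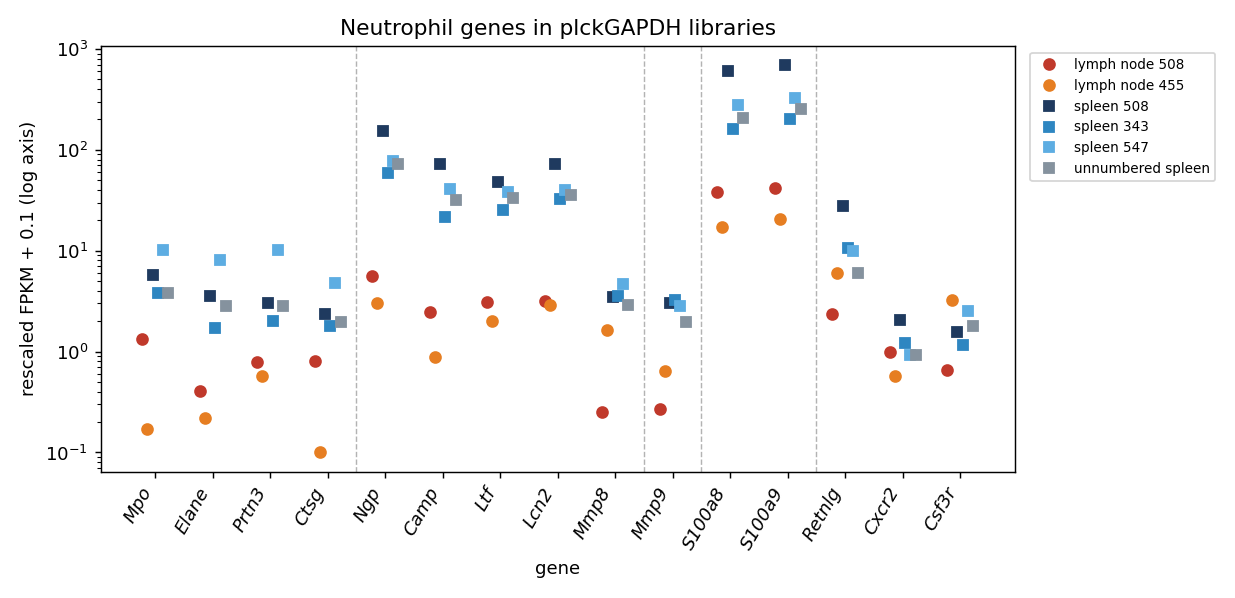
Rescaled FPKM + 0.1 on a log axis of 15 neutrophil genes in each plckGAPDH library, with circles for lymph nodes and squares for spleens; dashed lines separate primary granule, secondary granule, gelatinase, calprotectin and other genes. For Ngp, Camp, Ltf, Lcn2, S100a8 and S100a9 both lymph nodes lie well below all 4 spleens, while Csf3r is highest in lymph node 455.

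Of 13 genes of mast cells, basophils and eosinophils, 3 passed the filter, and in 2 of these both lymph nodes lay below all spleens (4.95% of all genes). Mcpt8 and Prss34, proteases of basophils, are those 2: Mcpt8 stood at 0.0852 and 0 FPKM against 0.284, 0.881, 1.02 and 3.04 FPKM. Prss34 stood at 0 and 0.0478 FPKM against 0.378, 1.1, 1.2 and 4.32 FPKM, and the unnumbered spleen was highest for both. Mcpt8 and Prss34 passed the filter only through the spleens, which favoured their lack of overlap. The third, Prg2, stood at 45.1 and 9.97 FPKM against 141, 4.44, 0.786 and 13.9 FPKM. Prg2 encodes the eosinophil major basic protein, and it was highest in both libraries of animal 508 and in the unnumbered spleen. Of 8 monocyte genes tested, 5 differences were negative, and the tissues overlapped in all 8. In animal 508 all 8 were lower in the lymph node, with a median of -0.45. In the second contrast 3 were lower, with a median of 0.63. Ly6c2, the marker of inflammatory monocytes, stood at 68.1 and 23.8 FPKM against 103, 27.1, 74.1 and 38.2 FPKM, and Ccr2, their chemokine receptor, at 1.21 and 25 FPKM against 1.67, 17.8, 19.1 and 8.03 FPKM.

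Most red blood cell genes had lower levels in the lymph nodes, but the size differed by animal. Of 23 listed genes in the table, 16 passed the filter, 15 differences were negative and none was called. In 10 of the 16 both lymph nodes lay below all spleens (4.95% of all genes), and 5 were lower at an unadjusted p under 0.05 (0.836% of all genes). Some listed genes, Alas2, Hbb-bt and Slc4a1 among them, were under 1 FPKM in both lymph nodes and passed the filter only through the spleens. The filter favours lower lymph nodes in such genes, so their lack of overlap is no support. The median difference of the 16 genes was -1.51. It was -0.24 in animal 508 and -1.97 in the second contrast, so most of the difference comes from spleens 343, 547 and unnumbered.

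Adult haemoglobin is built from alpha and beta globin chains. Hbb-bs, a beta globin (chromosome 7, 103826534 to 103828096, GRCm38), stood at 6.53 and 2.73 FPKM in the lymph nodes and 13.7, 126, 543 and 54.7 FPKM in the spleens. The tissues did not overlap, yet spleen 508 lay closer to the lymph nodes than to the other spleens. The difference was -4.03 (SE 1.3, adjusted p = 0.999). Hba-a2, an alpha globin, stood at 3.66 and 1.54 FPKM against 12.3, 109.7, 449 and 42.4 FPKM, and Hba-a1 and Hbb-bt followed the same order of libraries among the spleens. Hba-a1 and Hba-a2 are near-identical copies, as are Hbb-bs and Hbb-bt in part, so the split of reads between them is uncertain. Wild-type spleens held from 0.180 (spleen 4) to 23628 FPKM (spleen 5) of Hbb-bs, so globin RNA varied more among spleens than between these tissues.

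Other genes of red cells and their precursors showed a like order. Alas2, the erythroid enzyme of haem synthesis, stood at 0.170 and 0.0837 FPKM against 0.733, 3.7, 18.9 and 2.32 FPKM. Slc4a1, the band 3 anion exchanger, stood at 0 and 0.0239 FPKM against 0.555, 5.13, 35.9 and 7.21 FPKM. Spleen 547 was highest in both of these genes and spleen 508 lowest of the spleens. Tfrc, the transferrin receptor of red cell precursors and of dividing cells in general, was the 1 tested gene with a positive difference, at 9.59 and 24.6 FPKM against 8.02, 8.29, 28 and 14.1 FPKM. Platelet genes were low: of 15 listed genes 5 passed the filter, with a median of -0.36, and Ppbp, a platelet chemokine, stood at 0.0682 and 0.108 FPKM against 0.106, 0.847, 2.4 and 1.58 FPKM.

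Genes of red pulp macrophages did not move together. Of 17 listed genes 16 passed the filter, with 8 positive and 8 negative differences and a median of 0.04. The 2 contrasts went opposite ways. In animal 508, 13 of the 16 were lower in the lymph node, with a median of -0.36. In the second contrast 6 were lower, with a median of 0.85. Of the 16 genes none was called, and 1 was lower at an unadjusted p under 0.05 (0.836% of all genes). That gene was Slc40a1, ferroportin, which exports the iron recovered from red cells (chromosome 1, 45908068 to 45926523, GRCm38). It stood at 0.392 and 0.299 FPKM in the lymph nodes and 2.4, 5.11, 7.41 and 2.43 FPKM in the spleens, with no overlap, and was 12.6-fold higher in the spleens by the means. Slc40a1 passed the filter only through the spleens, which favoured its lack of overlap. The difference was -1.88 (SE 0.43, adjusted p = 0.999), and it was -1.29 in animal 508 and -2.11 in the second contrast.

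Spic, the transcription factor that red pulp macrophages require, stood at 0.937 and 2.93 FPKM against 2.21, 4.49, 6.58 and 3.71 FPKM, with lymph node 455 above spleen 508. Hmox1, haem oxygenase, went the other way, at 25.5 and 28.8 FPKM against 18.2, 18, 19.9 and 10.1 FPKM, with both lymph nodes above all spleens and an adjusted p of 0.999. With FPKM as deposited its difference turned to -0.03. Vcam1, an adhesion molecule of these macrophages and of stroma, stood at 5.21 and 26.8 FPKM against 7.98, 17, 11.8 and 9.66 FPKM, highest in lymph node 455. The complement gene C1qa, made by most tissue macrophages, stood at 29.9 and 165 FPKM against 30.2, 31, 29.9 and 23.4 FPKM. Lymph node 508 was within the narrow range of the spleens for C1qa, and lymph node 455 was far above it. Adgre1, the macrophage marker F4/80, stood at 0.886 and 6.25 FPKM against 0.993, 49.3, 5.43 and 3.61 FPKM, where both libraries of animal 508 were lowest and spleen 343 highest.

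**Figure D4:**
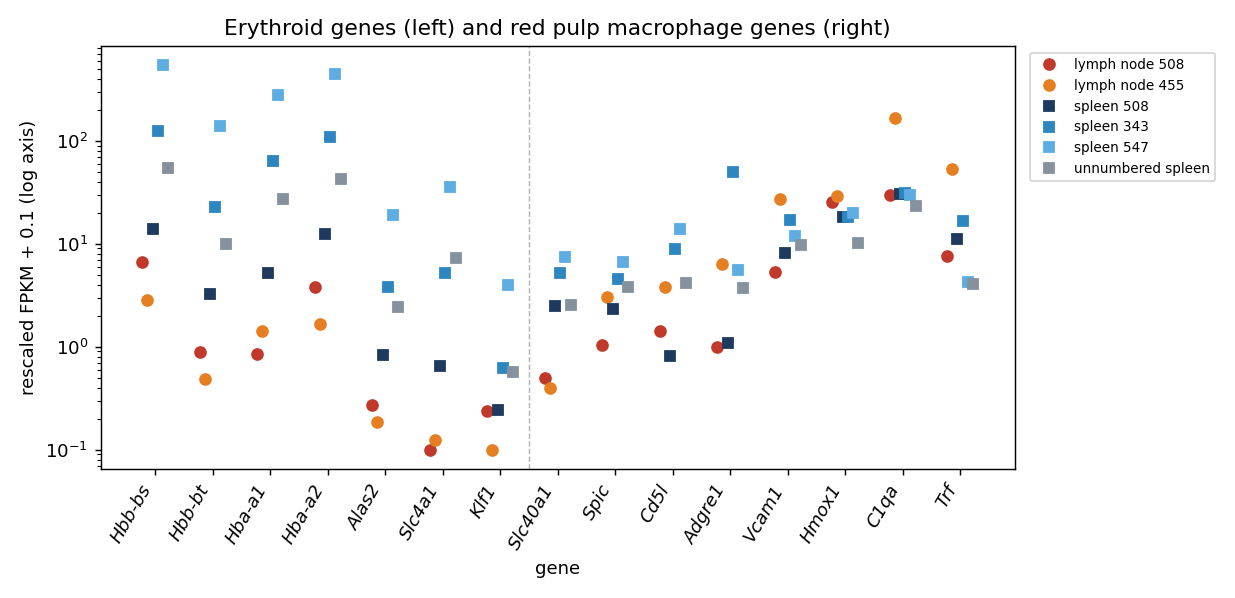
Rescaled FPKM + 0.1 on a log axis of 7 erythroid genes (left of the dashed line) and 8 genes of red pulp macrophages (right) in each plckGAPDH library, with circles for lymph nodes and squares for spleens. Erythroid genes and Slc40a1 are lowest in the lymph nodes, while C1qa, Trf and Vcam1 are highest in lymph node 455.

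Macrophage genes of the marginal zone and of lymph node sinuses were high in lymph node 455. All 6 tested genes of 8 had positive differences, none called, with a median of 0.58 that turned to -0.39 without lymph node 455. Mrc1, the mannose receptor, stood at 0.767 and 25.3 FPKM against 0.402, 3.31, 1.97 and 0.577 FPKM. Marco, a scavenger receptor, stood at 1.69 and 8.65 FPKM against 0.165, 5.96, 4.25 and 0.463 FPKM, and the sinus macrophage lectin Siglec1 at 0.256 and 3.61 FPKM against 0.142, 1.59, 0.356 and 0.285 FPKM. Cd209b, a lectin of marginal zone and medullary sinus macrophages, reached 5.19 FPKM in lymph node 455 and stayed at 0.153 FPKM or less elsewhere. For Mrc1, Marco and Siglec1, lymph node 508 lay within the range of the spleens.

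Stromal genes were near the floor in most libraries, and the genes that define either organ were close to 0. Tlx1, which the spleen needs to form, was listed at 0 in all 6 libraries, and Nkx2-5, Nkx2-3 and Tcf21 did not pass 0.0926 FPKM in any of them. Of the high endothelial venule genes, Chst4 was listed at 0 throughout and Glycam1 reached 0.311 FPKM in lymph node 455 and was listed at 0 elsewhere. Prox1 and Mmrn1 of lymphatic endothelium stayed at 0.164 FPKM or less. None of 12 smooth muscle and 6 mesothelium genes passed the filter. The labelled tissue could therefore not be checked on its defining stromal markers.

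Of 15 genes of fibroblastic reticular cells and other lymph node stroma, 7 passed the filter, 5 with positive differences, and their median was 0.23, with a range of -0.33 to 0.82 over the alternatives. Ccl21a was the 1 tested gene of this list with both lymph nodes above all spleens (3.43% of all genes), and none was called. Ccl21a passed the filter only through the 2 lymph nodes, so its lack of overlap followed from the filter and is no support. It encodes the chemokine CCL21, which stromal and lymphatic cells display to draw T cells and dendritic cells (chromosome 4, 42772860 to 42773993, GRCm38). It stood at 1.18 and 11.4 FPKM in the lymph nodes and 0, 0, 0.0537 and 0 FPKM in the spleens. Both lymph nodes lay above all 4 spleens, 3 of which were listed at 0. The difference was 2.36 (SE 0.64, adjusted p = 0.999), with 1.12 in animal 508 and 3.61 in the second contrast. The gene has near-identical copies, so reads may be split among them, and wild-type spleens held 0.360 to 2.46 FPKM. Ccl19, the other ligand of CCR7, stood at 0.716 and 0.741 FPKM against 0.863, 4.27, 1.5 and 1.86 FPKM, and Cxcl13, which draws B cells into follicles, at 1.26 and 1.58 FPKM against 0.355, 4.96, 0.571 and 1.18 FPKM. For Ccl19 both lymph nodes lay below all spleens, and for Cxcl13 the tissues overlapped.

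Extracellular matrix genes were concentrated in lymph node 455. It was the highest of the 6 libraries in 24 of the 25 listed genes, a count that includes genes under the filter. Over all genes tested it was the highest in 1595 of 12433. Only 3 of the listed genes passed the filter, so they do not stand for the rest. Dcn, the collagen-binding proteoglycan decorin, stood at 1.07 and 12 FPKM against 0.0591, 4.03, 0.0672 and 0.171 FPKM. Bgn, the related biglycan, stood at 0.256 and 6.37 FPKM against 0.520, 1.28, 0.222 and 0.314 FPKM, and Col3a1, of type III collagen, at 0.204 and 4.8 FPKM against 0.177, 0.856, 0.0739 and 0.135 FPKM. Fn1, fibronectin, which macrophages make too, was the exception, at 5.08 and 9.28 FPKM against 2.13, 13.5, 10.5 and 7.52 FPKM. The summed level was 9.95 FPKM in lymph node 508, 64.8 in lymph node 455 and 4.96 to 23.4 in the spleens. Of 18 blood endothelial genes 2 passed the filter, both with negative differences, and no member of these lists was called.

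RNA of exocrine pancreas was highest in lymph node 455 and spleen 343 among the plckGAPDH libraries, and wild-type spleen 1 held about as much as spleen 343. Of 14 listed genes 12 passed the filter and all 12 differences were positive, with a median of 2.4, none called and 0 at an unadjusted p under 0.05. Ctrb1, a chymotrypsinogen, stood at 6.22 and 239 FPKM against 0.957, 63.4, 0.403 and 0 FPKM, and the trypsinogen gene Try5 at 4.06 and 196 FPKM against 1.48, 33.6, 0.275 and 0.0499 FPKM. The insulin genes Ins1 and Ins2 were listed at 0 in all libraries. The summed level was 26.3 FPKM in lymph node 508 and 1078 in lymph node 455, against 326 in spleen 343 and 3.08 to 6.71 in the other spleens. In wild-type spleens 1, 4 and 5 it was 324, 18.5 and 0.149 FPKM. Lymph node 508 lay above spleen 508 in all 12 tested genes. The part of pancreas RNA in the other differences of lymph node 455 was not tested. Without lymph node 455 and spleen 343, a fit chosen after seeing the data, limma called 0 genes, with 172 at an unadjusted p under 0.05 and a smallest adjusted p of 0.992.

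**Figure D5:**
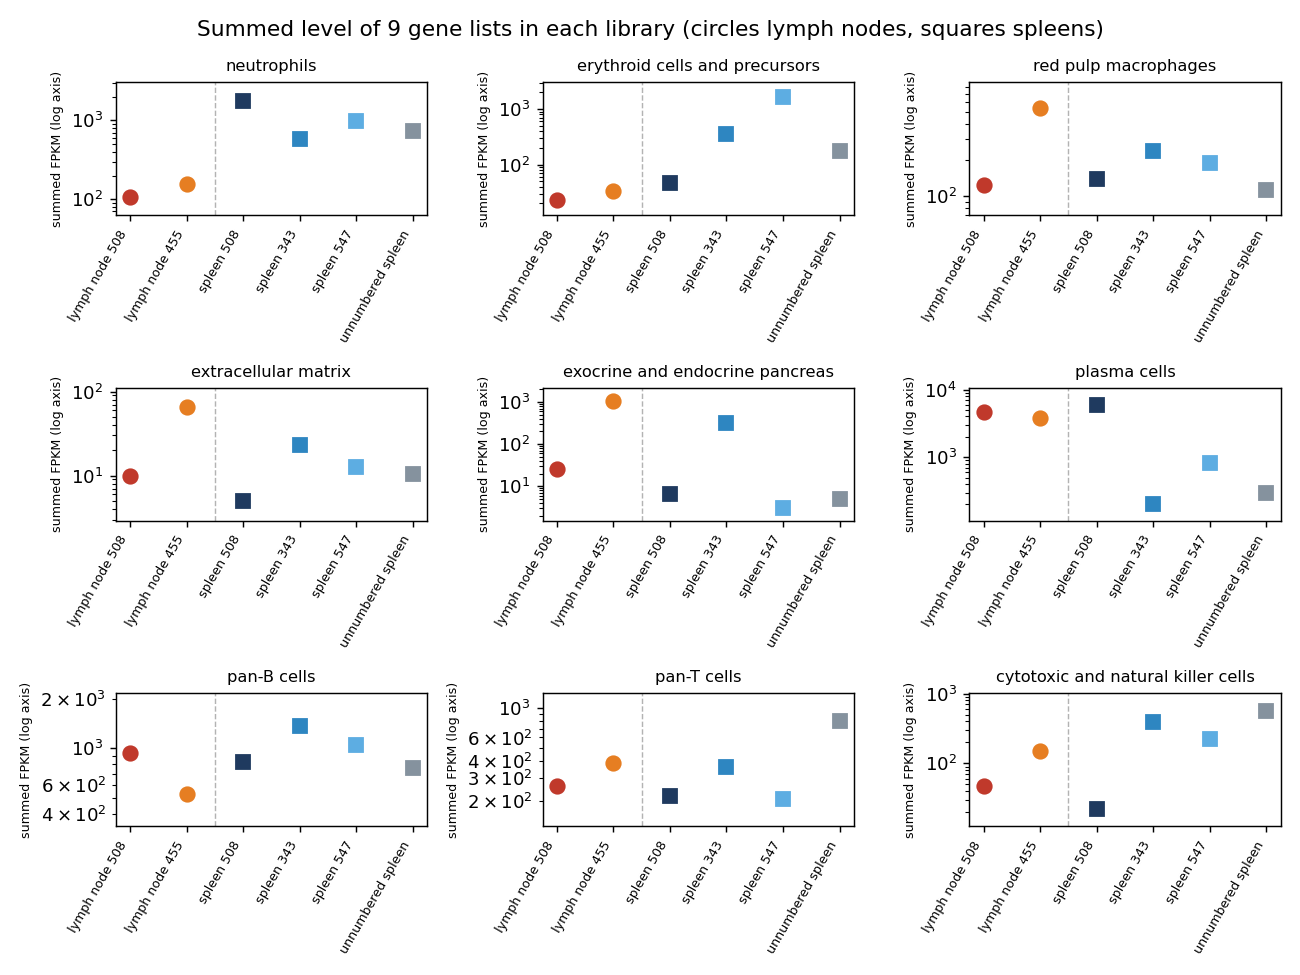
Summed rescaled FPKM (log axes) of 9 marker lists in each plckGAPDH library, with circles for lymph nodes left of the dashed line and squares for spleens. The neutrophil and erythroid sums are lower in both lymph nodes than in every spleen, and the plasma cell sum is high in both lymph nodes and in spleen 508.

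Most genes of B cells overlapped between the tissues. Of 14 pan-B genes tested, both lymph nodes lay above all spleens in 1 (3.43% of all genes) and below them in 0 (4.95%), and 10 differences were negative and 4 positive, with a median of -0.51. None was called, and 1 was higher at an unadjusted p under 0.05 (1.25% of all genes). Ms4a1, which encodes CD20, stood at 76.6 and 70.7 FPKM against 71.5, 106, 181 and 56.3 FPKM, and the tissues overlapped. Fcer2a, the IgE receptor CD23 of mature follicular B cells, was the gene at an unadjusted p under 0.05, at 14.4 and 14.3 FPKM against 11.6, 0.898, 0.148 and 0.577 FPKM. It was the gene with no overlap, and its difference was 2.58 (SE 0.92, adjusted p = 0.999). Spleen 508 was near the lymph nodes and the other 3 spleens were low, and without spleen 508 the gene was called, at 3.38 with an adjusted p of 0.0250. Wild-type spleens 1, 4 and 5 held 30.5, 18.6 and 76.4 FPKM of Fcer2a, all above both lymph nodes. Cr2, the complement receptor CD21, was under the filter in these 6 libraries, at 0.290 and 1.12 FPKM against 0.165, 0.579, 0.0940 and 0.912 FPKM, beside 11.7 to 114 FPKM in wild-type spleens.

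Plasma cell genes were high in both lymph nodes and in spleen 508. All 12 passed the filter and had positive differences, with a median of 1.64, and none was called and 0 had an unadjusted p under 0.05. In animal 508 the median was -0.10 and 8 of the 12 were lower in the lymph node than in the spleen. Jchain, which joins IgM and IgA units, stood at 2831 and 2255 FPKM against 4103, 7.73, 12.6 and 26.7 FPKM. Mzb1, a chaperone of antibody assembly, stood at 737 and 648 FPKM against 661, 19.7, 82.4 and 51.8 FPKM, and Xbp1, the regulator of secretion, at 320.2 and 140.0 FPKM against 362, 28.2, 88 and 41.6 FPKM. For each, spleen 508 lay with the lymph nodes and above the other 3 spleens. Jchain differed by 5.38 (SE 2.39, adjusted p = 0.999), and without spleen 508 it was called, at 7.41 with an adjusted p of 0.0124. Without spleen 508, 24 genes were called higher and 3 lower with limma, 21 and 3 of them outside the receptor loci.

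Lymph node 455 was the highest of the 6 libraries in 4 of 8 germinal centre genes, and in 1595 of the 12433 genes tested. All 8 passed the filter, 6 had positive differences and none was called, and 0 had an unadjusted p under 0.05. Rgs13, a regulator of chemokine signalling in germinal centre B cells, stood at 0.136 and 43.5 FPKM against 0.260, 0.0252, 2.24 and 0.0855 FPKM. Wild-type spleens 1, 4 and 5 held 0.668, 31 and 2.62 FPKM of Rgs13. Gcsam stood at 0.409 and 33 FPKM against 1.19, 0.411, 0.0672 and 0.306 FPKM, and lymph node 455 was far above the other plckGAPDH libraries in both genes. In animal 508, 7 of the 8 were lower in the lymph node than in the spleen, while all 8 differences of the second contrast were positive.

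T cell genes overlapped between the tissues. Of 19 pan-T genes tested, 13 differences were negative and 6 positive, with a median of -0.21, none called and 0 at an unadjusted p under 0.05. In animal 508, 17 of the 19 were higher or equal in the lymph node, with a median of 0.29. Cd3e, a subunit of the T cell receptor complex, stood at 12.3 and 19.9 FPKM against 9.6, 22.2, 8.74 and 56.4 FPKM, and Cd4 at 15.4 and 33 FPKM against 15, 18.2, 2.9 and 59.1 FPKM. The unnumbered spleen was highest in both. Lck, the kinase whose promoter drives the transgene, stood at 19.2 and 40.3 FPKM against 14.7, 25.6, 25.1 and 88.2 FPKM. Of 7 follicular helper T cell genes tested, 4 were negative and 3 positive. Il21, the cytokine with which these cells help B cells, stood at 1.36 and 15.6 FPKM against 1.93, 2.12, 0.0403 and 10.4 FPKM, and Pdcd1, which encodes PD-1, at 6.41 and 26 FPKM against 8.08, 15.9, 4.42 and 68.6 FPKM. Cd8a, of cytotoxic T cells, stood at 0.733 and 6.43 FPKM against 0.567, 9.9, 13.5 and 12.2 FPKM, lowest in both libraries of animal 508. Ccr7, the receptor of CCL21 and a marker of naive T cells, stood at 10.4 and 2.1 FPKM against 6.32, 10.6, 27.6 and 11.8 FPKM, with lymph node 455 below all spleens.

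Genes of dendritic cells and of the stroma of follicles gave no common direction. Of 12 dendritic cell genes 7 passed the filter, 4 with positive differences, and of 8 migratory dendritic cell genes 4 passed, 2 of them positive. Itgax, which encodes CD11c, stood at 3.68 and 23.4 FPKM against 6.66, 28.8, 5.36 and 11.8 FPKM, and Xcr1, of cross-presenting dendritic cells, did not pass the filter. Fscn1, an actin-bundling protein of migrating dendritic cells, stood at 39.3 and 61.9 FPKM against 49.3, 38.4, 1.49 and 14 FPKM, with spleen 547 far below the others. Of 8 genes of follicular dendritic cells 6 passed the filter, 4 of them positive. Clu, clusterin, stood at 1.26 and 12 FPKM against 0.414, 2.07, 0.423 and 0.976 FPKM, highest in lymph node 455. Of 8 high endothelial venule genes 4 passed. Madcam1, the ligand of a gut-homing integrin, stood at 1.23 and 0.335 FPKM against 1.93, 0.134, 0 and 6.07 FPKM, highest in the unnumbered spleen.

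The regulatory T cell, marginal zone B cell and stem cell genes that passed the filter overlapped between the tissues. Of 6 regulatory T cell genes tested 5 differences were positive, and Ctla4, an inhibitory receptor, stood at 15.7 and 20.5 FPKM against 14.8, 15.3, 7.57 and 26.6 FPKM. All 8 marginal zone B cell genes passed the filter, 5 with negative differences, and Cd9 stood at 14 and 5.58 FPKM against 13, 9.65, 55.9 and 27.7 FPKM. Of 8 stem and progenitor genes 4 passed, and Kit, the receptor for stem cell factor, stood at 1.43 and 0.526 FPKM against 1.34, 0.956, 1.07 and 2.4 FPKM. For Cd9 the highest library was spleen 547 and for Kit the unnumbered spleen. Of 14 adipose genes 5 passed the filter, and Fabp4, a fatty acid carrier of adipocytes, capillaries and macrophages, stood at 0.665 and 13.9 FPKM against 0.957, 0.730, 1.02 and 0.762 FPKM, with lymph node 455 apart from the rest. Epithelium, nerve and skeletal muscle had 1, 2 and 2 genes tested of 11, 8 and 7. In all the lists from dendritic cells to skeletal muscle no gene was called, and 0 had an unadjusted p under 0.05.

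Among cytotoxic genes, 1 went against the rest. Of 10 tested genes 9 differences were negative, with a median of -1.15. None was called, and 1 was lower and 1 higher at an unadjusted p under 0.05 (0.836% and 1.25% of all genes). The higher one was Gzma, granzyme A (chromosome 13, 113093825 to 113100981, GRCm38), at 5.73 and 18.9 FPKM in the lymph nodes and 1.93, 1.48, 2.32 and 3.92 FPKM in the spleens. Both lymph nodes lay above all plckGAPDH spleens, with a difference of 1.81 (SE 0.48, adjusted p = 0.999). Wild-type spleens 1, 4 and 5 held 18.2, 10.8 and 75.8 FPKM of Gzma, each above lymph node 508, and spleen 5 above both lymph nodes. Gzmb, granzyme B, stood at 2.03 and 8.73 FPKM against 0.201, 21, 41.9 and 32.2 FPKM, and Ccl5, a chemokine of effector T cells, at 24 and 75.8 FPKM against 9.35, 247, 105 and 350.5 FPKM. Both libraries of animal 508 were the lowest of the 6 for these 2 genes. Prf1, perforin, was the lower one, at 1.64 and 3.34 FPKM against 2.68, 13.2, 9.9 and 21.7 FPKM. In animal 508, 9 of the 10 were higher in the lymph node, with a median of 0.46, whereas in the second contrast 9 were lower, with a median of -1.18.

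Among tested genes of cell state, Atf3 was the 1 gene with no overlap between the tissues. Of 21 cell cycle genes 14 differences were negative and 7 positive, with a median of -0.16, and Mki67 stood at 31.7 and 35.6 FPKM against 50.2, 24, 98.3 and 48.6 FPKM, highest in spleen 547. Interferon-response genes had a median of -0.01 over 13 tested. Of 10 immediate early and heat shock genes tested, 8 differences were positive, with a median of 0.54, and the medians were 0.06 in animal 508 and -0.01 in the second contrast. Fos, a transcription factor induced within minutes of a stimulus, stood at 50.4 and 4.77 FPKM against 70.4, 0.864, 2.08 and 2.37 FPKM. Both libraries of animal 508 were far above the others for Fos. Reln, listed here with lymphatic endothelium, was likewise highest in animal 508, at 154 and 33.9 FPKM against 205, 0.612, 5.86 and 15.6 FPKM, while Prox1 of that list was near 0. None of these lists had a called member. At an unadjusted p under 0.05 (1.25% of all genes higher) the only member of the cell cycle, interferon and immediate early lists was Atf3, a stress-response factor, at 2.08 and 2.51 FPKM against 0.626, 1.03, 0.564 and 0.520 FPKM. Both lymph nodes lay above all spleens for Atf3 (3.43% of all genes).

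Some genes were higher in both lymph nodes than in all 4 spleens and belong to no list. They were chosen after their values were seen. Ccl8, a chemokine of tissue macrophages, stood at 35.9 and 614 FPKM against 17.3, 5.5, 3.52 and 1.77 FPKM, a difference of 4.6 (SE 1.18, adjusted p = 0.999). Retnla, a secreted protein of alternatively activated macrophages, stood at 1.64 and 168 FPKM against 0, 0.470, 0 and 0 FPKM. Retnla passed the filter only through the 2 lymph nodes, so its lack of overlap followed from the filter. In both genes lymph node 455 was far above lymph node 508. The stress-response genes Cth, Nupr1 and Trib3 were more even between the lymph nodes. Cth, which makes cysteine from cystathionine, stood at 23.1 and 29 FPKM against 7.44, 0.243, 0.531 and 1.04 FPKM. Its difference was 3.49 (SE 0.75, adjusted p = 0.999), and without spleen 508 it was called, at 4.13 with an adjusted p of 0.0124. Nupr1 stood at 10.8 and 27 FPKM against 4.57, 2.06, 2.21 and 1.76 FPKM, and Trib3, a pseudokinase induced by amino acid shortage, at 9.07 and 3.56 FPKM against 2.65, 0.0168, 0.484 and 0.185 FPKM. In each of the 3 genes spleen 508 was the highest spleen.

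Gapdh, the gene of the transgene (chromosome 6, 125161715 to 125166467, GRCm38), stood at 532 and 662 FPKM in the lymph nodes and 597, 360.4, 598 and 637 FPKM in the spleens. The means were 597 ± 92.2 FPKM (SD, n = 2) and 548 ± 126 FPKM (SD, n = 4), and the tissues overlapped. The difference was 0.15 (SE 0.44, adjusted p = 0.999), and its sign turned with the scaling of the libraries. Reads of the transgene and of the mouse gene were not told apart.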

How the data were processed

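RNA sequencing of 9 samples was used. Per the labels' protocols, libraries were made from 500 ng of total RNA with a stranded kit and read as 2 reads of 75 bases per fragment. The authors deposited FPKM for 46517 genes. The submitters' processing notes list build mm10, RSEM, Bowtie2 2.2.6, STAR 2.4.0a, and featureCounts with Subread 1.5.0-p3. The step and annotation behind the FPKM were not given in the sources used here. Since FPKM are relative, a gene that takes many fragments lowers all others of its library.

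The columns of the 6 plckGAPDH libraries were divided by median-of-ratios factors over 16612 genes above 0 in all 6 (0.587 for lymph node 508 to 1.49 for spleen 547). Each wild-type column was scaled to the same reference, over those of these genes that were above 0 in it. With R 4.3.3 and limma 3.58.1, log2(FPKM + 1) of the 6 plckGAPDH libraries was fitted with an intensity trend and a 2-group design, for genes with at least 1 FPKM in 2 of 6 libraries, with Benjamini-Hochberg adjustment over all of them. The fit was tested on simulated data. A test of a single gene over samples alone could not go below an exact permutation p of 0.0667 in this design. The 2 libraries of animal 508 come from 1 animal, so a fit with a term for that animal was also run. Other alternatives changed the scaling, the pseudocount, the filter and the libraries used.

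Depth was estimated from low FPKM, which fall on multiples of the value of 1 fragment. Of the values of short genes, 80.5% to 84.6% lay near a whole number of fragments, against 19.0% to 24% by chance. Near meant within 0.03 fragments plus the rounding error of the deposited value. Depth and fragment length were chosen to make this excess largest, so it is no independent check of them. At most 0.257% of values were identical between any 2 libraries, so none is a copy of another. The column of the unnumbered spleen matches no single title.

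Gene positions are from GENCODE M21 (GRCm38, the assembly of mm10), which matched 46005 of the genes by Ensembl identifier. Of the listed genes 1 was not found in the table. Promoters are from RefSeq (GRCm38.p6), and all 6 promoters sought were matched. The members and the 36 gene lists were chosen with earlier results of these data known. By rule, the first 4 genes of each list, called members, Gapdh and called genes outside the lists were named, and other named genes were chosen after their values were seen. A few genes of these lists are not reported here.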

Additional observations from a re-analysis of the deposited data

Results flagged for a closer look

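Among 69 genes and list sums examined over the 4 plckGAPDH spleens, 10 had 1 spleen far from the other 3. By chance about 1 in 20 groups of 4 would be picked out in this way. In spleen 343, the summed pancreas list was 326 FPKM against 3.08 to 6.71 in the others, Ctrb1 was 63.4 FPKM against 0 to 0.957, Dcn was 4.03 FPKM against 0.0591 to 0.171, Retnla was 0.470 FPKM against 0, and Gapdh was lowest at 360.4 FPKM against 597 to 637. In the unnumbered spleen, Hmox1 was lowest at 10.1 FPKM against 18.0 to 19.9 and C1qa was lowest at 23.4 FPKM against 29.9 to 31.0. The list of naive lymphocyte homing genes summed there to 224 FPKM against 91.8 to 99.5. In spleen 508, the megakaryocyte and platelet list was lowest at 6.54 FPKM against 13.2 to 14.5. In spleen 547, Ccl21a was 0.0537 FPKM where the others were listed at 0.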

How the results depend on the processing

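The counts of called genes were 1 higher and 0 lower. They were 2 and 6 with FPKM as deposited, 2 and 4 with scaling to the sum over long genes, and 2 and 4 with the replicate block for animal 508. Higher genes numbered 0 with a pseudocount of 0.1, 0 with no filter, 0 with a filter of 5 FPKM, 0 without lymph node 455 and spleen 343, and 3 without both libraries of animal 508, the last 2 fits being chosen after seeing the data. With 1 library left out at a time, 0 to 24 genes were called higher and 0 to 3 lower. Fits with 1 lymph node assume that it varies as the spleens do. The 24 arose without spleen 508, and without lymph node 508 there were 3, all in receptor loci. FPKM as deposited moved the median of all genes to -0.62 and the sum scaling to -0.27. Against these, the neutrophil median with FPKM as deposited was -2.18. Of the differences of 33 single genes under the alternatives, 467 kept direction and call, 20 gained a call, 6 lost it and 6 turned sign. Hmox1 turned to -0.0251 with FPKM as deposited. Gapdh turned to -0.63 with FPKM as deposited, -0.18 with the sum scaling, -0.21 without lymph node 455 and spleen 343, -0.0132 without lymph node 455 and -0.0409 without spleen 343, and it ran from -0.0409 to 0.299 over the fits without 1 library. The medians of the neutrophil, erythroid, platelet and cytotoxic lists stayed negative and those of the plasma cell and pancreas lists positive in every alternative run. The median of the pancreas list ran from 0.06 to 4.85, and that of the red pulp macrophages from -0.92 to 0.87. With 2 lymph nodes, 1 of them from an animal that also gave a spleen, the design limits what can be called, and low genes such as those of stroma rest on few fragments.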
